A study of Mus musculus with 16 samples.

Results

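The 9 genes described here, among 7114 named genes on the array, encode helicase subunits, a helicase loader, the sliding clamp and ribonucleotide reductase subunits. They were chosen by gene symbol, with their log2 ratios in both cell types already known, so that the M833 minus WT values of these 9 genes are a description and carry no test. The members were the MCM helicase genes Mcm3, Mcm4, Mcm5, Mcm6 and Mcm7, the helicase loader gene Cdc6, the sliding clamp gene Pcna and the ribonucleotide reductase genes Rrm1 and Rrm2. All 9 were measured, by 11 probes, with 3 probes for Rrm2 and 1 for each of the other genes, and none was lost to a filter. The series comprised 8 arrays of M833 cells and 8 arrays of WT cells. The series is titled for Met mutations in MEFs (mouse embryonic fibroblasts). The labels name the cell types only as M833 and WT, and give neither the allele behind M833, nor strain, age, treatment or number of cultures, nor the make-up of the common reference RNA that every array carried in its other dye. Dyes were swapped, so that Cy5 marked the cell sample on 4 arrays of each type and Cy3 on the other 4.

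Every value below is a log2 ratio to that reference, read as sample over reference, a direction that the titles make likely and no label states. Because each probe was set against the same reference, a value compares a transcript with itself in the reference RNA and gives no abundance of one gene against another. Nothing in the labels says that arrays came from separate cultures, so errors and p-values reflect array to array spread alone, possibly of technical origin. Over all probes r between arrays ran from 0.591 to 0.973, its minimum being 0.818 once WT replicate 2 was set aside, which alone held values above 8 (49 probes, none of them of the 9 genes). WT replicates 1, 2, 5 and 6 deviated together from WT replicates 3, 4, 7 and 8 over 12712 other features. Deviations from the mean of the same cell type and dye correlated with r from 0.18 to 0.50 between arrays of 1 such set that differed in dye, and from -0.51 to -0.15 between the sets. In M833 the sets with the same replicate numbers showed this less, with r from 0.02 to 0.24 within sets and from -0.20 to 0.03 between them. Deviations within a cell type and dye cancel by construction, so the values between sets mirror those within sets and are no separate observation. The sets come from the data and are no groups of the labels, and values against each WT set are given for the 9 genes and for other genes that moved with the sets. Of 8 measured fibroblast markers Vim and Pdgfrb lay above the reference in both cell types and Dcn and Lum more than 2 log2 units below it, while Alb and the globin gene Hbb-b1 lay lower still, at -6.33 and -7.05 in M833 and at -6.33 and -6.90 in WT.

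As background, chromosomal origins are licensed before S phase, when the origin recognition complex, Cdc6 and Cdt1 load rings of the MCM subunits onto DNA, and the rings become active helicases as replication starts. The clamp that Pcna encodes then tethers DNA polymerases, and ribonucleotide reductase, built of a large subunit (Rrm1) and a small subunit (Rrm2), reduces ribonucleotides to the deoxynucleotides they use. Transcripts of many of these genes are known to peak around the start and course of S phase under control of E2F transcription factors, and to be low in resting fibroblasts.

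The MCM subunit genes were higher in M833 than in WT with the exception of Mcm4. Mcm6 had log2 ratios of -0.29 at the lowest, -0.17 at the median and -0.04 at the highest in M833 arrays, against -1.30, -0.95 and -0.51 in WT arrays. The groups did not overlap, and the difference of 0.75 ± 0.12 (SE, n = 8 arrays per cell type), or 1.68-fold, was the largest of the 9 genes. Mcm6 encodes a subunit of the core helicase and its M833 arrays were tight (SD 0.08), whereas its WT arrays took 2 levels (SD 0.36). Mcm3, another subunit of the ring, ran from -0.65 through -0.48 to -0.27 in M833 and from -1.31 through -1.08 to -0.88 in WT. Again every M833 array lay above every WT array, with a difference of 0.59 ± 0.04 or 1.51-fold. Mcm7 ran from -0.31 through -0.19 to -0.09 in M833 and from -0.83 through -0.57 to -0.35 in WT. It did not overlap between the groups either, although the highest WT array, at -0.35, lay close to the lowest M833 array, at -0.31, and it differed by 0.39 ± 0.08 or 1.31-fold. Mcm5 ran from -0.78 through -0.55 to -0.42 in M833 and from -1.17 through -0.96 to -0.60 in WT. Its groups overlapped, with 5 of 8 M833 arrays above the highest WT array, and the difference of 0.38 ± 0.08, or 1.30-fold, was 0.25 with log ratios scaled between arrays.

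Mcm4, also a subunit of the same ring, showed no such difference. It ran from 0.07 through 0.22 to 0.25 in M833 and from 0.08 through 0.22 to 0.41 in WT. The groups lay on top of each other, and the difference of -0.01 ± 0.04, which was 0.02 with arrays centred and 0.03 with log ratios scaled, had a 95% confidence interval from -0.10 to 0.09, which leaves out the difference of every other gene of the 9. Mcm4 was read by a single probe, so that its pattern has no second probe to set beside it. Mcm2, the subunit outside the chosen 9 that was measured, averaged -0.33 in M833 and -0.89 in WT and rose by 0.56 ± 0.06 in M833 (adjusted p = 4.2e-06, limma over all features).

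**Figure D1:**
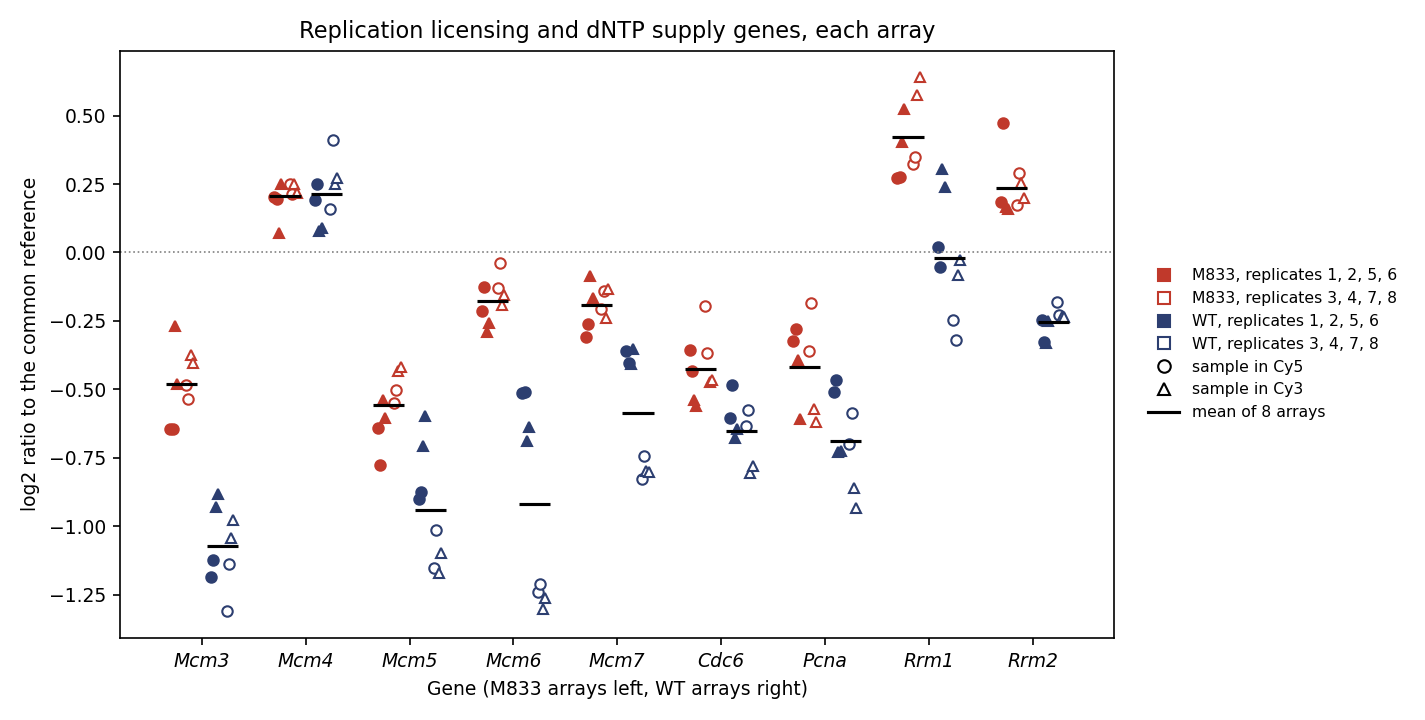
Log2 ratio to the common reference (vertical axis) of the 9 genes (horizontal axis) on each array, M833 in red on the left and WT in blue on the right of each gene; circles have the sample in Cy5, triangles in Cy3, filled symbols are replicates 1, 2, 5 and 6, open symbols replicates 3, 4, 7 and 8, and bars are means of 8 arrays. Mcm3, Mcm6, Mcm7 and Rrm2 do not overlap between the cell types, Mcm4 does so entirely, and the WT arrays of Mcm6 fall into a level from -0.69 to -0.51 and one from -1.30 to -1.21.

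Promoter sequences of Mcm6, Mcm5, Mcm7 and Mcm3 are shown because these transcripts differed together and E2F sites are known in genes of this kind. Mcm4, the MCM gene of the 9 that was not called between the cell types, had no promoter entry and was not searched. RefSeq GRCm38.p6 promoters, 250 bases before to 50 bases after an annotated start, were found for the other 8 genes, with 2 starts for Mcm7. They were searched on both strands for TTTCCCGC, TTTCGCGC, TTTGCCGC and TTTGGCGC, the letters of a textbook E2F site, and for CCAAT, the core of an NF-Y site. The E2F-type letters can overlap each other on opposite strands, and a match on the opposite strand stands as its reverse complement. They are in capitals in the promoters of Mcm6 (chr1:128359656-128359955, minus strand), Mcm5 (chr8:75109259-75109558, plus strand), Mcm7 (chr5:138171834-138172133, minus strand, the upstream of its 2 starts) and Mcm3 (chr1:20820263-20820562, minus strand), each written 5′ to 3′ along the gene.
Mcm6: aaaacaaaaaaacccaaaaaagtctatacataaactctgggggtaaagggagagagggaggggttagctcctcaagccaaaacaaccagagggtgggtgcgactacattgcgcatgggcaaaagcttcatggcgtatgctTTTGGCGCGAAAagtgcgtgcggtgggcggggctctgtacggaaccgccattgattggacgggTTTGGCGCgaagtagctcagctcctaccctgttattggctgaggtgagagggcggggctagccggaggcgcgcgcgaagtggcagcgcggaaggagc
Mcm5: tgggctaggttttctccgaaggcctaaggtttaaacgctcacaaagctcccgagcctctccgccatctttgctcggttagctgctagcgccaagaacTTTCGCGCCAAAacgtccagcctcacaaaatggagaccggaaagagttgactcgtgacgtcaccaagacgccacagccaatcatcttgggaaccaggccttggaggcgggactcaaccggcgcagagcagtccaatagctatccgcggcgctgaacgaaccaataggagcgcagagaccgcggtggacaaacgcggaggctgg
Mcm7: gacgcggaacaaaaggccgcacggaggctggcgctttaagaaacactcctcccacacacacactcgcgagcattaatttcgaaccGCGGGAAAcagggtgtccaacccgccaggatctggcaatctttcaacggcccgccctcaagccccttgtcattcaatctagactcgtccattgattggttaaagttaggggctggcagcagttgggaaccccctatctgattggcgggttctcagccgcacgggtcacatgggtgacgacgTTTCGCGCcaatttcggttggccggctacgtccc
Mcm3: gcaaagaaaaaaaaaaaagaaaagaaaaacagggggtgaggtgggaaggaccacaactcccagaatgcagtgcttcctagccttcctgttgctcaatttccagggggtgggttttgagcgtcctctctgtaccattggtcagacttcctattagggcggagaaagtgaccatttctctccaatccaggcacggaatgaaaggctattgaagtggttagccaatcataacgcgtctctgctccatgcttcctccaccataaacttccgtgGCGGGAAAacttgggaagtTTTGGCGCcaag

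The E2F-type letters occurred in 5 of the 8 genes, namely these 4 MCM genes and Cdc6. Counted by promoter they occurred in 5 of the 9, against 2.26% of the 32851 promoters of the table. The promoter of the downstream Mcm7 start held none. Mcm6 had 3 matches, of which 2 overlapped, and the first began at base -110 from the start. Mcm5 had 2 overlapping matches, the first at base -153. Mcm7 and Mcm3 had 2 each, and Cdc6 had 1, at base -138. The Cdc6 window (chr11:98907901-98908200, plus strand) lay wholly within the gene's span, which began at 98907709. Bases upstream of that span were therefore not searched for Cdc6. Most of the printed Mcm7 window also lay within its gene's span, which ended at 138172111. CCAAT occurred in 7 of the 8 genes, all but Cdc6, and in 8 of the 9 promoters, against 37.41% of all promoters of the table. Pcna, Rrm1 and Rrm2 held no E2F-type letters in these windows, which says nothing on the factor, and a match is a description of letters and not of binding.

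**Figure D2:**
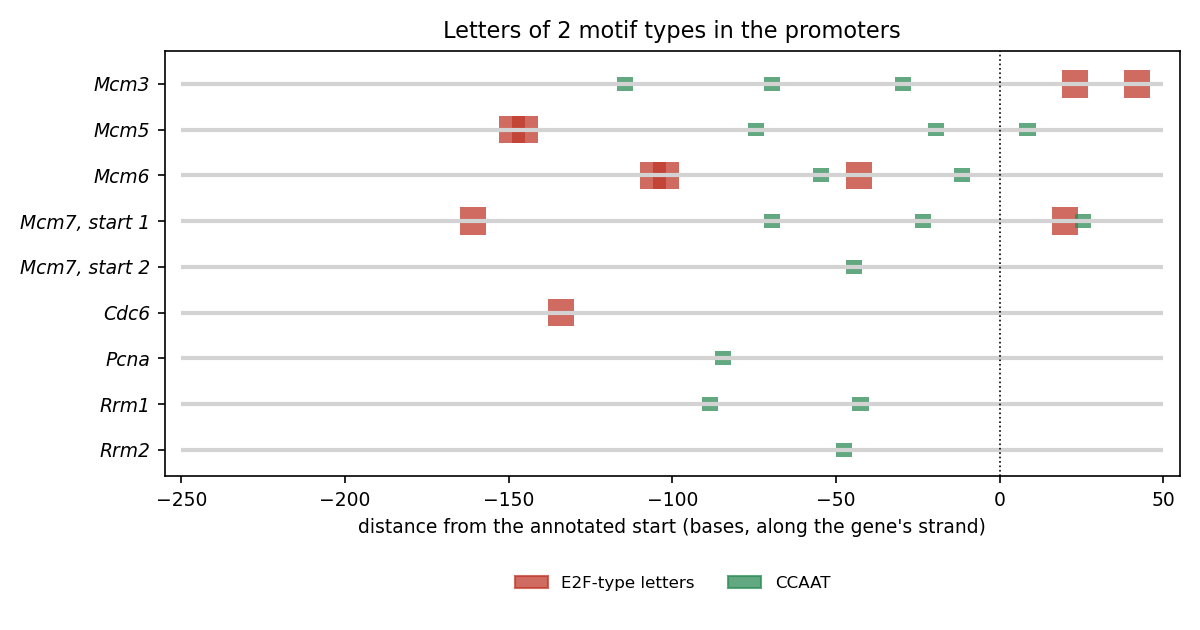
Position of the E2F-type letters (red, tall) and of CCAAT (green, short) in the promoters of 8 genes, with the distance from the annotated start in bases on the horizontal axis and 1 line per start. Matches to the E2F-type letters are drawn for 4 MCM genes and Cdc6, and CCAAT is drawn for all but Cdc6.

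Cdc6 and Pcna were higher in M833 by smaller amounts. Cdc6, the ATPase that helps to load the MCM ring, ran from -0.56 through -0.45 to -0.20 in M833 and from -0.80 through -0.64 to -0.49 in WT. The ranges overlapped, with 6 of 8 M833 arrays above the highest WT array, and the difference was 0.23 ± 0.04 or 1.17-fold. Scaling the arrays to a common spread gave 0.13. Pcna, the sliding clamp gene, ran from -0.62 through -0.38 to -0.18 in M833 and from -0.93 through -0.71 to -0.47 in WT. Here 5 of 8 M833 arrays lay above the highest WT array, and the difference was 0.27 ± 0.05 or 1.21-fold. Much of the overlap of both genes went with the dye. With the sample in Cy5, Pcna ran from -0.36 to -0.18 in M833 and from -0.70 to -0.47 in WT, and in Cy3 from -0.62 to -0.39 in M833 and from -0.93 to -0.73 in WT, so that within each dye the groups lay apart. The same held for Cdc6, at -0.43 to -0.20 in M833 and -0.64 to -0.49 in WT with the sample in Cy5, and -0.56 to -0.47 in M833 and -0.80 to -0.64 in WT with the sample in Cy3.

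Both subunit genes of ribonucleotide reductase were higher in M833. Rrm2, whose small subunit carries the radical that the reaction needs, ran from 0.16 through 0.19 to 0.47 in M833 and from -0.33 through -0.24 to -0.18 in WT. The groups did not overlap and lay on either side of the reference, with a difference of 0.49 ± 0.04 or 1.41-fold. Its 3 probes differed between the cell types by 0.53, 0.52 and 0.42, and on the third of them M833 replicate 2 read 1.09 where the other M833 arrays read 0.03 to 0.29. Rrm1, the gene of the large catalytic subunit, ran from 0.27 through 0.38 to 0.64 in M833 and from -0.32 through -0.04 to 0.30 in WT. Of the M833 arrays 6 lay above the highest WT array, and the difference was 0.44 ± 0.06 or 1.36-fold. With the sample in Cy5 it ran from 0.27 to 0.35 in M833 and from -0.32 to 0.02 in WT, so that the groups lay apart within that dye, as they did with the sample in Cy3. The promoter of Rrm2 (RefSeq, GRCm38.p6, chr12:24708004-24708303, plus strand) is shown beside those of the MCM genes because its arrays also separated cleanly. It held none of the E2F-type letters. Only exact letters in this window were searched, so their absence says nothing on the factor.
Rrm2: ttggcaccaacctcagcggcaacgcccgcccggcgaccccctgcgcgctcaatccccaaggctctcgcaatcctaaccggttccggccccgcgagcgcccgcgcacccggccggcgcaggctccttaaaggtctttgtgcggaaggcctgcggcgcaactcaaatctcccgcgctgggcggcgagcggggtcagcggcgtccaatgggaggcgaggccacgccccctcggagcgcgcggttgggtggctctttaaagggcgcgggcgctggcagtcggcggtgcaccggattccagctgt

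Over the whole array 3301 of 12761 features (25.9%) had an adjusted p under 0.05 for the cell types (limma, dye fitted), 10.0% of features higher and 15.9% lower in M833. Centring every array moved these counts to 1558 higher and 1635 lower, against 1276 and 2025 as deposited. In the same fit 8 of the 9 genes were higher and Mcm4 was not called, with a median difference of 0.39, against a median of -0.03 over all features. In 7 of the 9 genes all 4 M833 arrays lay above all 4 WT arrays in both dyes, which was so for 4.01% of all features, and none lay below in both, against 6.49%. In 4 genes all 8 lay above all 8, against 1.82% of features, or 4.59% in either direction. As the genes were chosen with these values known, nothing is read from these counts. RNA came from bulk cultures, in which more cells in the phases that express a gene and more transcript per cell cannot be told apart. The macrophage and leukocyte markers moved with the cell type in the opposite direction: all 7 measured of 18 listed fell in M833, against 15.9% of all features. Their mean log2 ratio ran from -1.60 to -1.29 over M833 arrays and from -0.46 to -0.28 over WT arrays. Among the 7, the defining markers Lyz2 and C1qb averaged -1.98 and -1.31 in M833 and -0.32 and 0.14 in WT. Ratios cannot show a transcript at 0, and the part of these markers in the differences of the 9 genes was not tested.

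The WT arrays were not uniform, and the genes differed in how far they followed the 2 WT sets. Averaged over the 9 genes the log2 ratio ran from -0.20 to -0.10 over M833 arrays, from -0.46 to -0.42 over WT replicates 1, 2, 5 and 6 and from -0.68 to -0.60 over WT replicates 3, 4, 7 and 8. The macrophage marker mean was -0.37 in each of these WT sets, but its members went both ways. Lyz2 averaged 0.04 in the first and -0.68 in the second WT set, and C1qa -0.71 and -0.47. Dcn, at -2.93 and -2.19, and the keratin gene Krt18, at -1.70 and -0.86, also moved with the WT sets, and the part of these markers was not tested. Mcm6 averaged -0.59 in the first WT set and -1.25 in the second, so that M833 exceeded them by 0.41 and 1.08. Mcm7 showed the same with differences of 0.19 and 0.60, Mcm5 with 0.21 and 0.55, and Rrm1 with 0.29 and 0.59. Mcm3, at 0.55 and 0.64, Rrm2, at 0.53 and 0.46, and Cdc6, at 0.18 and 0.27, depended less on the WT set, and Pcna lay between, at 0.19 and 0.35. Mcm4 differed by 0.05 and -0.07. Thus 7 of the 9 genes were lower in WT replicates 3, 4, 7 and 8 than in the other WT set, and in 8 of the 9 M833 was higher than both. Between the corresponding M833 sets the genes differed by 0.16 for Mcm5 and by at most 0.10 in size for the other 8, which was less than between the WT sets for all but Cdc6, where both differences were 0.10 in size.

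**Figure D3:**
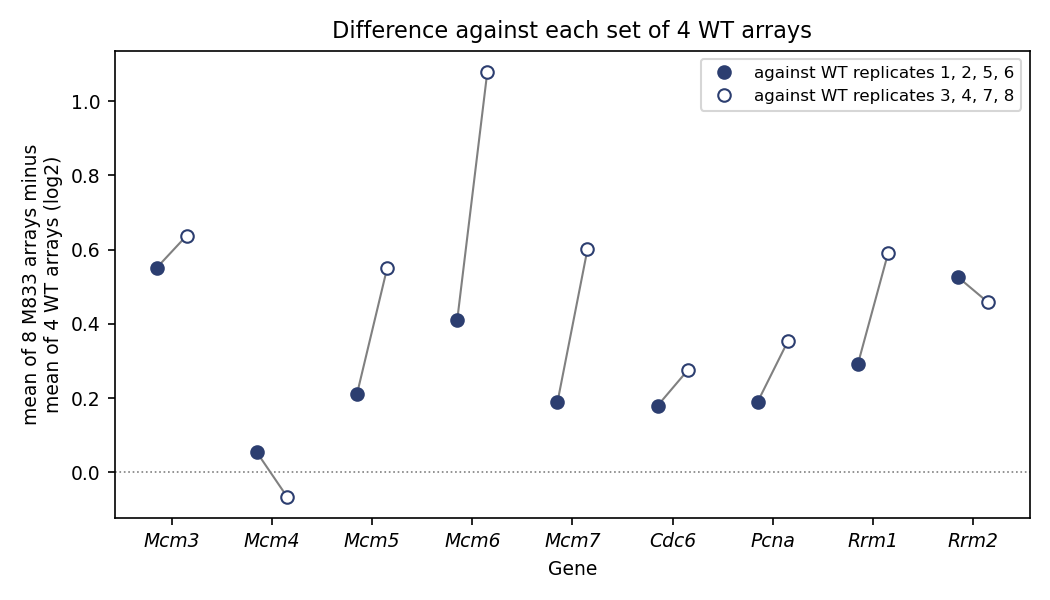
Mean of 8 M833 arrays minus the mean of 4 WT arrays on the log2 scale (vertical axis) for each gene (horizontal axis), against WT replicates 1, 2, 5 and 6 (filled) and against WT replicates 3, 4, 7 and 8 (open). The lines are long for Mcm5, Mcm6, Mcm7 and Rrm1 and short for Mcm3, Cdc6 and Rrm2, and only Mcm4 crosses 0.

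Levels against the reference are the same log2 ratios that were known when the genes were chosen, and are given as a description with no test. In M833, 8 of the 9 genes were called against 0 in limma, where 72.4% of all features were, 5 of them below the reference (36.1% of features) and 3 above it (36.3%). Those below were Mcm5 (-0.56 ± 0.06), Mcm3 (-0.48 ± 0.03), Cdc6 (-0.42 ± 0.03), Pcna (-0.42 ± 0.03) and Mcm7 (-0.19 ± 0.06, SE), and those above were Rrm1 (0.42 ± 0.04), Rrm2 (0.24 ± 0.03) and Mcm4 (0.21 ± 0.03), while Mcm6 was at -0.18 ± 0.09. In WT, 8 genes were called, where 79.2% of features were, 7 below (35.8%) and 1 above (43.5%). Mcm3 was the lowest, at -1.07 ± 0.03, followed by Mcm5 (-0.94 ± 0.06) and Mcm6 (-0.92 ± 0.09), and Rrm2 was the nearest of the 7, at -0.25 ± 0.03. Mcm4 lay above the reference, at 0.21 ± 0.03, and Rrm1 was at -0.02 ± 0.04. Nothing is read from these counts.

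The dye in which the sample was labelled shifted 4 of the 9 genes, against 41.3% of all features, 2 of them higher with the sample in Cy5, against 22.7%, and 2 lower, against 18.5%, and was fitted as its own term. Pcna read 0.25 ± 0.05 and Cdc6 0.16 ± 0.04 higher with the sample in Cy5, and Rrm1 and Mcm3 differed by -0.24 ± 0.06 and -0.21 ± 0.04 (adjusted p = 0.00048 for Pcna and 0.0058 for Rrm1, limma). The interaction of the difference between M833 and WT with dye was called in 0 of the 9 genes and in 0 of 12761 features (0.0%) in limma, with 361 features and none of the 9 at an unadjusted p under 0.05. For Mcm6 the difference was 0.74 in Cy5 and 0.75 in Cy3, for Rrm1 it was 0.46 and 0.43, and the widest gap among the 9 was in Mcm7, at 0.35 and 0.43.

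Other genes of origin licensing were measured for 14 of 24 listed. Of these 8 rose in M833 (57.1%), 1 fell (7.1%) and 5 did not pass, where 10.0% of all features rose and 15.9% fell. The median difference was 0.15 against -0.03 over all features. The Cdc7 kinase activator gene Dbf4 rose by 0.45 ± 0.03, with all 4 of its probes higher, Wdhd1, which links helicase and polymerase alpha, by 0.47 ± 0.06 and the origin recognition gene Orc6 by 0.32 ± 0.04. The loading factor gene Cdt1 rose by 0.16 ± 0.03, Orc1 by 0.19 ± 0.03, the MCM-binding gene Mcmbp by 0.15 ± 0.04 and Orc2 by 0.12 ± 0.04. Orc4 fell by 0.20 ± 0.06 (SE, n = 8 arrays per cell type, not known to be separate cultures). Gmnn, whose product geminin inhibits Cdt1, had a difference of 0.26 ± 0.10 and did not pass (adjusted p = 0.075, limma). The call of Orc2 was lost without any 1 of 13 arrays, that is all but WT replicates 4, 7 and 8, with differences from 0.098 to 0.13 and adjusted p from 0.053 to 0.085 in limma. Against WT replicates 3, 4, 7 and 8 alone Orc2 was at 0.03 and Orc4 at -0.15, neither called. With the array sets as a random block Orc2, Orc4 and Mcmbp were not called (adjusted p = 0.171, 0.256 and 0.168, limma). These genes were also not called without either set of 4 M833 arrays, nor was Cdt1 without M833 replicates 1, 2, 5 and 6. Mcmbp was at 0.06 with log ratios scaled and not called, Cdt1 was not called with no dye term (adjusted p = 0.187), and the weaker of the 2 probes of Orc1, at 0.10, was not called. Mcm10 was at -0.93 ± 0.84 and not called, with a reading of 7.27 on WT replicate 2 and from -0.35 to 0.21 on the other WT arrays.

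Of the DNA synthesis machinery 31 of 39 listed genes were measured, with a median difference of 0.19. Of these 16 rose (51.6%, against 10.0% of all features), 1 fell (3.2%, against 15.9%) and 14 did not pass. Top2a, the topoisomerase of dividing cells, rose by 0.68 ± 0.13, the catalytic polymerase delta gene Pold1 by 0.56 ± 0.11, the chromatin assembly factor genes Chaf1b and Chaf1a by 0.54 ± 0.07 and 0.46 ± 0.04, and the fork protection genes Tipin and Clspn by 0.54 ± 0.06 and 0.41 ± 0.06. The single-strand binding genes Rpa3 (0.35 ± 0.07) and Rpa2 (0.34 ± 0.04), the polymerase delta subunit genes Pold2 (0.35 ± 0.11) and Pold3 (0.33 ± 0.05), the primase gene Prim1 (0.45 ± 0.14) and Uhrf1 (0.31 ± 0.07), which guides maintenance methylation, also rose. Smaller increases were in the flap endonuclease gene Fen1 (0.20 ± 0.06), the clamp loader genes Rfc2 and Chtf18 (0.19 each) and Pole2 (0.18 ± 0.04), and Pole3 fell by 0.22 ± 0.04. The 2 probes of Fen1 read 0.42 and -0.03, and it fell short of the threshold once M833 replicate 5 or 6 or WT replicate 1 or 6 was left out, at 0.17 to 0.18 (adjusted p from 0.056 to 0.057, limma). Pold2 lost its call without any 1 of 7 arrays, M833 replicates 4, 5 and 8 and WT replicates 3, 4, 7 and 8, at 0.28 to 0.34 (adjusted p from 0.055 to 0.063, limma). Chtf18 lost it without any 1 of 10, M833 replicates 3, 4, 5, 6 and 8 and WT replicates 3, 5, 6, 7 and 8, at 0.15 to 0.20 (adjusted p from 0.054 to 0.076, limma). Several of these genes followed the WT sets. Against WT replicates 1, 2, 5 and 6 and against WT replicates 3, 4, 7 and 8, Top2a differed by 0.35 and 1.01, Pold1 by 0.32 and 0.80, Prim1 by 0.09 and 0.81, Pold2 by 0.06 and 0.64, Rfc2 by 0.10 and 0.29, and Fen1 by 0.34 and 0.05. Of these, Prim1, Pold2, Rfc2 and Chtf18 were not called against the first set alone, nor Fen1 against the second. With the array sets as a random block Rfc2 (adjusted p = 0.057), Prim1 (0.063), Pole3 (0.072), Pold2 (0.093), Pole2 (0.098), Fen1 (0.112) and Chtf18 (0.289) were not called in limma. With log ratios scaled Uhrf1 was at 0.15 and Fen1 at 0.14, neither called, and with no dye term Pold1, Rpa3, Pole2, Pole3, Fen1 and Chtf18 were not called. Uhrf1, Prim1, Pold2, Fen1 and Chtf18 were not called without M833 replicates 1, 2, 5 and 6. The same genes and Pole2, Pole3 and Rfc2 were not called without M833 replicates 3, 4, 7 and 8.

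Of the dNTP supply genes 20 of 29 listed were measured, with a median difference of 0.015. Of these 6 rose (30.0%, against 10.0% of all features), 2 fell (10.0%, against 15.9%) and 12 did not pass. The thymidine kinase genes went in opposite directions. The cytosolic, cell cycle regulated Tk1 averaged -0.28 ± 0.17 in M833 and -0.93 ± 0.44 in WT (SD, n = 8 each) and rose by 0.65 ± 0.15 (SE), while the mitochondrial Tk2 averaged -0.07 ± 0.09 in M833 and 0.28 ± 0.10 in WT (SD) and fell by 0.35 ± 0.04 (SE). The small subunit genes of ribonucleotide reductase also moved apart. Rrm2b, the p53-inducible small subunit, ran from -0.06 through 0.02 to 0.12 in M833 and from 0.27 through 0.36 to 0.46 in WT, and fell by 0.34 ± 0.03 (adjusted p = 5.4e-06, limma), with both of its probes lower, whereas Rrm2 was higher in M833. The other increases were in the purine synthesis genes Paics (0.34 ± 0.10), Adsl (0.21 ± 0.05) and Gmps (0.09 ± 0.03), the folate gene Shmt1 (0.27 ± 0.05) and the nucleoside diphosphate kinase gene Nme1 (0.18 ± 0.05). Gmps was not called without WT replicate 7 (0.08, adjusted p = 0.05009, limma). Shmt1 was at 0.03 with log ratios scaled between arrays and not called, and the weaker of its 2 probes, at 0.23, was not called. Without M833 replicates 3, 4, 7 and 8 Tk1 was at 0.55 and not called (adjusted p = 0.118, limma), nor were Paics, Adsl, Gmps and Nme1. Paics, Adsl, Gmps and Nme1 were also not called without M833 replicates 1, 2, 5 and 6. Against the first and the second WT set Tk1 differed by 0.25 and 1.05, Paics by 0.08 and 0.60 and Nme1 by 0.28 and 0.08, with Paics and Gmps not called against the first set alone and Nme1 not against the second. With the array sets as a random block Paics (adjusted p = 0.060), Nme1 (0.090), Adsl (0.094) and Gmps (0.240) were not called in limma, nor were Nme1 and Gmps with no dye term. Dut, the dUTPase gene, had a difference of -0.01 with a 95% confidence interval from -0.09 to 0.07, and Samhd1, whose product degrades deoxynucleotides, one of 0.10 from -0.13 to 0.32, which was -0.17 against the first WT set and 0.37 against the second. Tyms and, of the licensing genes, Cdc45 were not among the genes with a probe of a single symbol.

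Among E2F and Rb family genes 9 of 13 listed were measured, with a median difference of 0.03. Of these 3 rose (33.3%, against 10.0% of all features), none fell (against 15.9%) and 6 did not pass. The repressor gene E2f7 averaged 0.20 in M833 and -0.38 in WT and rose by 0.58 ± 0.05. The dimerisation partner gene Tfdp1 rose by 0.24 ± 0.03 and the pocket protein gene Rbl1 by 0.23 ± 0.05 (SE, n = 8 arrays per cell type). Against the first WT set alone Rbl1 was at 0.11 (adjusted p = 0.0615, limma) and not called. Without M833 replicates 3, 4, 7 and 8 Rbl1 was at 0.19 (adjusted p = 0.104, limma) and not called. E2f8 had a difference of 0.64 ± 0.37 and did not pass (adjusted p = 0.219, limma), with 1.95 on M833 replicate 4 and from -1.17 to -0.54 on the other M833 arrays. E2f4 (0.03), E2f5 (-0.04), E2f6 (-0.04), Rb1 (-0.02) and Rbl2 (0.01) did not pass. The 4 lists were chosen with earlier results of these data known, so their counts and adjusted p-values are a description. Over the 4 lists 33 of 74 measured genes rose and 4 fell, against 10.0% and 15.9% of all features, and nothing is read from these counts. Of these 37 calls 15 held in each of 29 other settings, which left out single arrays or sets of 4 arrays, took the sets as a random block or changed centring, scaling, dye term, weights, moderation or probe averaging, namely 13 increases (Orc6, Mcm2, Dbf4, Wdhd1, Pold3, Rpa2, Tipin, Clspn, Top2a, Chaf1a, Chaf1b, E2f7 and Tfdp1) and the decreases of Rrm2b and Tk2. Fits of 1 dye, which called 15 and 20, and the fit on set means, which called 0, are not among the 29. With the array sets as a random block 14 of the 37 calls were lost, and 13 and 17 were lost without the first and without the second set of M833 arrays.

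**Figure D4:**
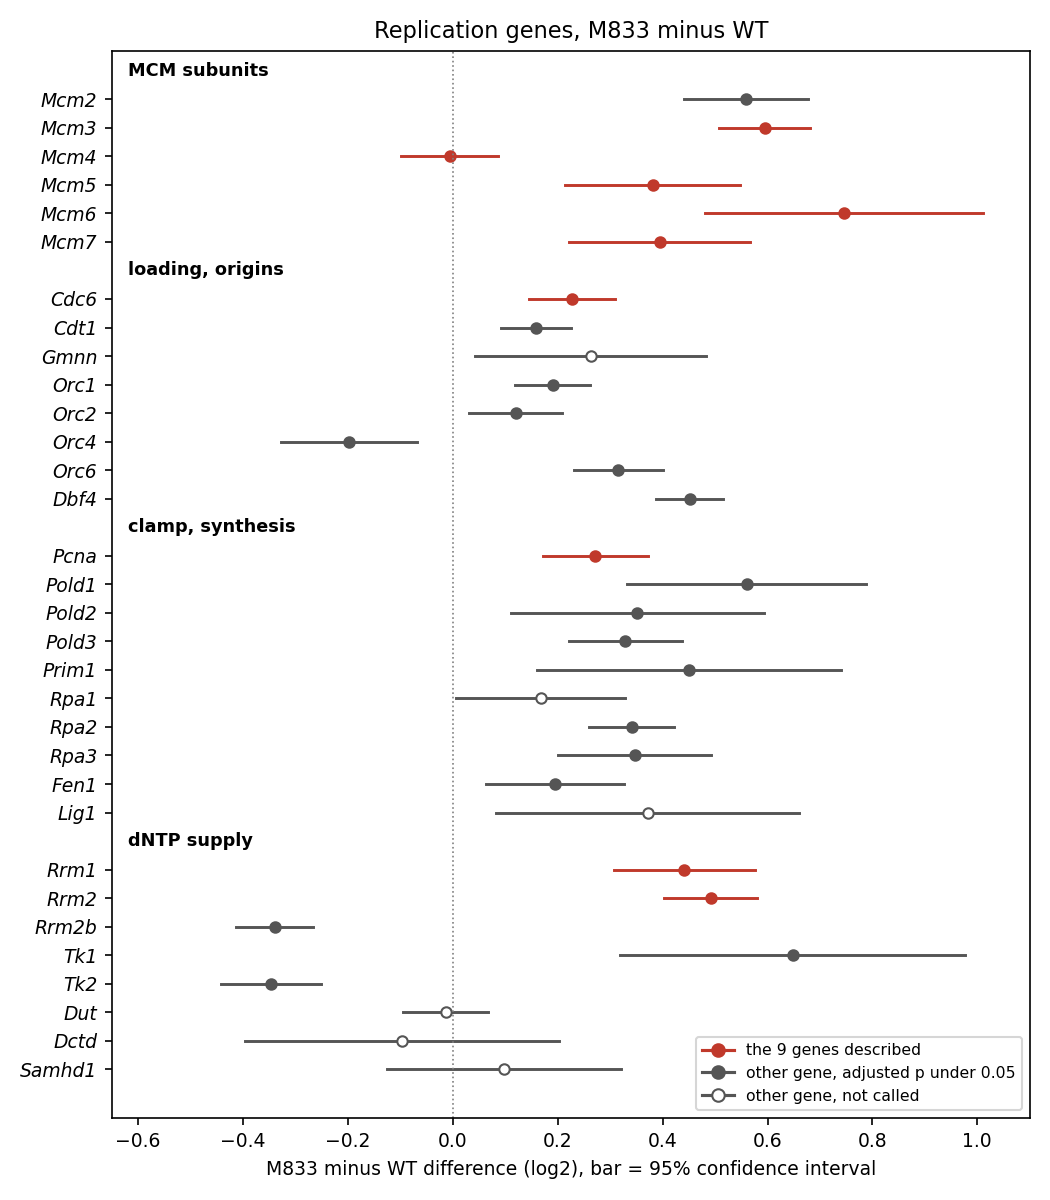
M833 minus WT difference on the log2 scale (horizontal axis) with its 95% confidence interval for the 9 genes (red) and for chosen genes of the same pathway (grey, filled where the adjusted p is under 0.05), grouped by role on the vertical axis. Mcm4 sits at -0.01 among MCM genes from 0.38 to 0.75, and Rrm2b and Tk2 sit at -0.34 and -0.35 below 0.

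Outside these lists the named genes whose centred and dye-adjusted profile over the 16 arrays lay nearest to the mean profile of the 9 genes, by root mean square distance among 7007 genes, were Hnrnpdl (distance 0.036), H2az1 (0.039), Dtl (0.046), Exo1 (0.051), Ezh2 (0.051) and Jpt2 (0.051). The 9 genes themselves lay from 0.066 (Rrm1) to 0.24 (Mcm4 and Mcm6) from their own mean. Dtl encodes the ubiquitin ligase subunit that destroys Cdt1 at the clamp, Exo1 a DNA exonuclease of mismatch repair, Ezh2 a histone methyltransferase, H2az1 a histone variant and Hnrnpdl an RNA-binding protein. Dtl averaged -0.41 ± 0.14 in M833, -0.63 in the first WT set and -0.89 in the second, and H2az1 -0.16 ± 0.05, -0.42 and -0.65. Exo1 averaged -0.03 ± 0.11 in M833, -0.38 in the first WT set and -0.60 in the second (SD, n = 8 M833 arrays). The distance was computed on the arrays that show the difference between the cell types, so these values describe a likeness and carry no test.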

How the data were processed

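RNA of M833 and WT cells was hybridised against a common reference on two-colour arrays, per the labels' protocols after Trizol extraction and dye incorporation by reverse transcription. The deposited values are log2 ratios that the authors normalised, with limma, per the submitters' processing notes. The log base was taken from the values, whose largest, 15.35, fits a 16-bit scanner on the log2 scale. How background was corrected, values normalised or probes filtered is not given in the sources used here. Array medians ran from -0.02 to 0.07, and channel intensities were not used here, so dim probes could not be filtered. Whether the values were centred, and the direction of the ratio, remain unstated.

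Of 15247 probes 9600 had 1 gene symbol, 214 several and 5433 none, and 9492 were matched by Entrez number to current symbols. Probes of 1 gene were averaged to 12761 features. Features were fitted with limma 3.58.1 in R 4.3.3 on the 16 arrays, with terms for cell type and dye, and a call needed an adjusted p under 0.05 (Benjamini-Hochberg, across the 12761 features). Replicates were numbered in series order because the labels give no numbers. Errors are SE of the fit unless SD is named. The number of arrays limits the precision.

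The 9 genes and the lists (origin licensing, DNA synthesis machinery, dNTP supply, E2F and Rb regulators, and markers of fibroblasts, macrophages and leukocytes, red cells, liver and epithelium) were chosen with earlier results of these data known. Called list genes were named, as were Mcm2, Cdt1, Gmnn, Tk1 and Rrm2b whether called or not; others named without a call, such as E2f8, Mcm10, Dut and Samhd1, were chosen after their values were seen. Of 8 measured fibroblast markers 5 fell (62.5%, against 15.9% of all features). None of 3 red cell, 2 liver and 4 epithelial markers was called, against 25.9% of all features. Alternatives changed centring, scaling, dye term, probe averaging, moderation, weights, dye orientation, threshold and arrays. The numbers that end the array titles formed a separate series for M833 replicates 6, 7 and 8 alone, all with the sample in Cy3. Without these arrays 2206 features were called, and 12 calls of other replication genes were lost. That fit was among the 29 other settings.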

Additional observations from a re-analysis of the deposited data

Results flagged for a closer look

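An array was picked out where its gap to the nearest of the other arrays of its cell type exceeded 0.526 of the range of the 8 arrays, Dixon's 95% limit. Of 172 groups of 8 arrays examined 14 were picked out, where chance gives about 1 in 20. Among the 9 genes, Mcm4 read 0.0721 on M833 replicate 5 and from 0.20 to 0.25 on the other M833 arrays. Rrm2 read 0.47 on M833 replicate 2 and from 0.16 to 0.29 on the others, and this came from the third of its probes, which read 1.09 there and from 0.03 to 0.29 on the others. Without that array the difference of Rrm2 was 0.46.

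Among the other replication genes WT replicate 2 stood apart at 7.27 for Mcm10, 6.60 for Slbp and 6.10 for Gart, where the other WT arrays ran from -0.52 to 0.40. M833 replicate 4 read -0.0938 for Orc1, -0.19 for Orc4 and 1.95 for E2f8. M833 replicate 3 read 0.0489 for Rfc2 and 0.82 for Rnaseh2a, and M833 replicate 6 read -0.17 for Chaf1a. WT replicate 1 read 0.53 for Orc4 and WT replicate 3 read -0.17 for Chtf18.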

How the results depend on the processing

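The count of 8 called among the 9 genes held without each array in turn. Over the settings 7 to 9 of the 9 genes differed from the reference in M833 and 8 to 9 in WT. Those with a dye effect ran from 3 to 6, and the interaction count was 0. In fits on the 12761 features, 6198 to 10021 features differed from the reference in M833 and 7265 to 10140 in WT. A dye effect was called in 3623 to 6234 features and an interaction in 0 to 7. The count of 8 was 7 without M833 replicates 3, 4, 7 and 8, where Mcm5 lost its call. It was 6 with the sample in Cy3 only (without Mcm5 and Pcna). With the sample in Cy5 only it was 5, and Mcm6 (0.74), Mcm7 (0.35) and Cdc6 (0.24) kept their size and missed the threshold. With the mean of each set of 4 arrays as 1 replicate it was 0. In that fit limma called 0 features and 0 other replication genes. There 1675 features, 6 of the 9 genes and 23 other replication genes had an unadjusted p under 0.05. The median difference over the 9 genes became 0.55 when WT replicates 1, 2, 5 and 6 were left out and 0.21 when the other 4 WT arrays were. The count of 3301 features was 2000 with no dye term, 835 with the sample in Cy5 only, 1100 in Cy3 only, 1465 with sets as a random block, 1685 without M833 replicates 1, 2, 5 and 6, 1858 without M833 replicates 3, 4, 7 and 8 and 1947 at an adjusted p under 0.01. The count of 37 other replication genes was 15, 20, 23, 24 and 20 in the second to sixth of these. Without WT replicates 1, 2, 5 and 6 the count of features rose to 4328, and without WT replicates 3, 4, 7 and 8 to 4629. The cause of these changes was not tested. Setting values beyond 8 missing, chosen after seeing the data, left the count of other replication genes at 37. No paired analysis was possible because the labels give no replicate numbers. Of 22 other replication genes with several probes, 8 had probes of both signs.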
